A study of Homo sapiens with 4 samples.

Results

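Ribosome biogenesis genes encode the proteins that transcribe ribosomal RNA, modify and cut it, and assemble it with ribosomal proteins into subunits. The 37 genes described here were given as a list of symbols, by a rule that uses no measured value but with earlier results of these data known, and all 37 had 1 entry on their own strand among 22798 genes. Nascent RNA of Karpas 299, an established cell line of an ALK-positive anaplastic large cell lymphoma, was measured by Bru-seq in 4 libraries, 1 per condition. In Bru-seq, bromouridine enters newly made RNA, which an antibody then pulls out for sequencing; here it was present for the last 30 min of each 3 h treatment. In 1 experiment, cells received the solvent DMSO or the drug SM-164, which as a bivalent Smac mimetic antagonises IAP proteins and whose dose the labels do not state. In the other, cells were exposed to CHO cells (a Chinese hamster ovary line) as the negative control, or to CHO cells carrying CD30L, the ligand of the receptor CD30, and were then collected by pipetting. All 4 libraries come from 1 cell line, and CD30L was presented by hamster cells, from which the lymphoma cells were taken off by pipetting.

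Library totals lay between 26217591 and 45885629 reads. Levels are given as RPKM, reads scaled to a gene's counted bases, exons and introns together, and to the library total. Of 11 lymphoma line markers, 9 to 10 were at an RPKM of at least 0.5 per library. CD30 (TNFRSF8) was at 4.97 to 12.3 and NPM1 at 6.08 to 7.76. ALK was at 0.0966 to 0.137 over its whole counted length, from 1888 to 4588 reads per library. Of 12 markers of B, myeloid and NK cells, 3 to 5 reached an RPKM of 0.5 per library, with a summed RPKM of 5.49 with DMSO, 5.05 with SM-164, 5.06 on CHO and 2.96 on CD30L+ CHO cells. MS4A1 had 0 reads in every library, while the B cell factor PAX5 was at 0.292 to 0.394, CSF1R at 0.653 to 0.752 and NKG7 at 0.796 to 3.02, and their part in the results was not tested. A list of 13 fibroblast and ovary markers, which could show RNA of the hamster cells, had a summed RPKM of 1.49 with DMSO, 0.914 with SM-164, 0.326 on CHO and 0.221 on CD30L+ CHO cells, and DCN, which encodes decorin, was at 0 in each. Hamster reads that match the human genome were not counted apart, and their part in any value below was not tested. No condition was repeated, so no difference has a replicate check and no p-value was computed. The intervals given are exact 95% intervals of the ratio of reads, and cover counting error only.

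Ribosome production starts in the nucleolus, where RNA polymerase I makes 1 long precursor from the ribosomal DNA. Small nucleolar RNPs (snoRNPs) guide its chemical modification, the small subunit processome folds and cuts the part that becomes the 40S subunit, and other factors mature the 60S subunit. In growing lymphoid cells these genes are classical targets of the transcription factor MYC, which with its partner MAX binds the E-box, the motif CACGTG. The list also holds 3 metabolic enzymes that are textbook MYC targets: SRM and ODC1 of polyamine synthesis and CAD of pyrimidine synthesis.

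Promoter windows from RefSeq (GRCh38.p14, 250 bases before to 50 after an annotated start) were matched by symbol for 31 of the 37 genes. The E-box CACGTG, which reads the same on both strands, was in at least 1 window of 17 of these 31 genes (54.8%), against 8.77% of all 27305 genes with a window and 12.8% of the 5597 such genes that passed the expression minimum on CHO and CD30L+ CHO cells. The looser motif CANNTG, which includes every CACGTG, was in 77.4% of the members and 73.1% of all genes. A 10-base NF-kB consensus was in 19.4% and 13.3%. The stretches below, 5′ to 3′ on the gene's strand with the E-box in capitals, are shown because they belong to members with very different responses to CD30L: SRM, RRP9, FBL and ODC1 were lower, while DDX21, GNL3 and NOP10 hardly differed.
SRM: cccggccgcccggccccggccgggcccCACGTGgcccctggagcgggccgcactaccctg
RRP9: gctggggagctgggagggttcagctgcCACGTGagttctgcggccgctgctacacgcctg
FBL: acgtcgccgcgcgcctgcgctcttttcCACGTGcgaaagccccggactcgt
ODC1: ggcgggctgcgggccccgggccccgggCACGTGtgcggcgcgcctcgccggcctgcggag
DDX21: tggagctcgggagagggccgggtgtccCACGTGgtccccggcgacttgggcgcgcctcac
GNL3: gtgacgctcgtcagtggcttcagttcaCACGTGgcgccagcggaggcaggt
NOP10: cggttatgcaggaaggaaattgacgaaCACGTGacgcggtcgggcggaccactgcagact
They lie at chr1:11060185-11060244 (SRM, minus strand), chr3:51941877-51941936 (RRP9, minus), chr19:39846350-39846400 (FBL, minus), chr2:10448009-10448068 (ODC1, minus), chr10:68956589-68956648 (DDX21, plus), chr3:52686011-52686061 (GNL3, plus) and chr15:34343115-34343174 (NOP10, minus). ODC1 and NOP10 each had another CACGTG in their windows. A match is a description of the sequence and not evidence that MYC is bound there.

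The members spanned a wide range of nascent RNA level. With DMSO, NCL, which encodes the abundant nucleolar protein nucleolin, stood highest at an RPKM of 22.9, followed by NOP56 at 8.73 and GNL3 at 7.45, and the lowest was RRP12 at 0.139. The median member was at 1.29 with DMSO, 1.21 with SM-164, 1.14 on CHO and 0.923 on CD30L+ CHO cells. The members together took 0.131%, 0.121%, 0.118% and 0.0909% of all reads in the same order. Their lowest value among the 4 libraries was on CD30L+ CHO cells for 33 of the 37, with the exceptions NOP10, UTP20, NOP14 and GNL3. Among 7861 genes whose mean RPKM over the libraries reached 0.5, CD30L+ CHO was the lowest library for 43.7%, and for 26 of the 29 members that passed this minimum. No member was highest there, against 19.6% of all these genes. The values are shares of a library, so fewer cells making an RNA, less of it per cell and more of other RNA cannot be told apart.

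**Figure D1:**
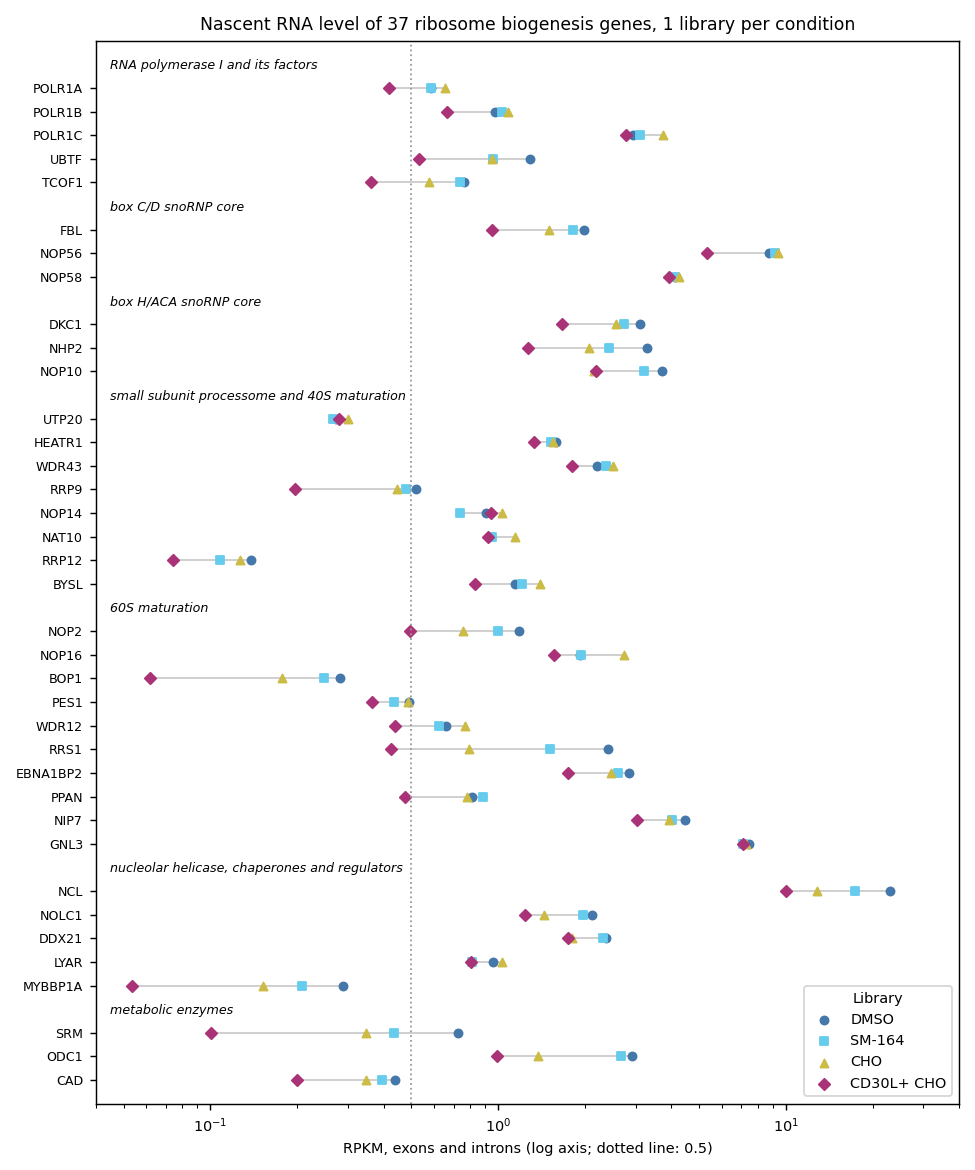
RPKM (log axis) of the 37 genes in the 4 libraries, grouped by role, with a grey line from the lowest to the highest library of each gene. The diamond of CD30L+ CHO is leftmost for 33 genes, and RRS1, SRM, MYBBP1A and BOP1 span the widest ranges.

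With CD30L+ CHO cells, 36 of the 37 genes had a ratio to CHO below 1, the exception being NOP10. The counting interval of the ratio lay below 1 for 33 of the 37 (89.2%), against 55.6% of 12595 genes with at least 50 reads in the pair, and above 1 for 0, against 13.4%; whether an interval reaches 1 also depends on a gene's reads. The other 4 (NOP10, UTP20, GNL3 and DDX21) were not distinguishable from 1 at this depth. The median ratio of reads was 0.653 (-0.61 on the log2 scale, against -0.21 for the 12595 genes), from 0.290 for SRM to 1.01 for NOP10. All members summed were at 0.771 of their CHO level (0.761 to 0.781), and at 0.770 without NCL. Nascent RNA of MYC was 6.74 on CHO and 2.92 on CD30L+ CHO cells (RPKM), against 6.67 with DMSO and 4.90 with SM-164.

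On the scale log2((RPKM + 0.25)/(RPKM + 0.25)), which understates differences of low genes, the median of the 28 members that passed the minimum (300 counted bases, mean RPKM of both libraries 0.5) was -0.43, and -0.43 over all 37. The median of all 7661 genes tested was -0.12. Negative values were found for 27 of the 28, against 72.0% of all genes. At least 1.5-fold lower were 6 of the 28 (21.4%), against 4.99% of all genes: NOP56, NOP16, UBTF, RRS1, BYSL and NHP2; SRM and RRP9 also reached this size but lay below the expression minimum. None was at least 2-fold lower, against 0.731% of all genes, none 1.5-fold higher, against 2.62%, and none 2-fold higher, against 0.979%. POLR1A, WDR12, RRS1, PPAN and NOP2 passed the minimum through their CHO value alone, so being lower was partly fixed by that rule. TMM scaling, which sets the bulk of genes equal, moved the median of all genes to 0.06 and that of the tested members to -0.25. Under it 23 of the 28 tested members were negative, against 40% of all genes, and the count at least 1.5-fold lower went from 6 of 28 to 1, against 2.23% of all genes; with DESeq2 size factors it was 0, against 2.04%, and with all genes centred on 0 it was 2, against 2.83%. Among all 37 under TMM scaling, DDX21, GNL3, NOP10, NOP14, NOP58 and UTP20 were positive, and with DESeq2 size factors HEATR1 and NOLC1 as well.

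Read ratios without a pseudocount, a setting chosen after seeing the data, bring in the low genes. Among genes with at least 50 reads in both libraries together, which all 37 members had, 4 members (10.8%) were at or below 0.5 on CD30L+ CHO cells, against 5.76% of 12595 genes. They were SRM, MYBBP1A, BOP1 and RRP9, all with fewer than 100 reads on CD30L+ CHO cells.

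**Figure D2:**
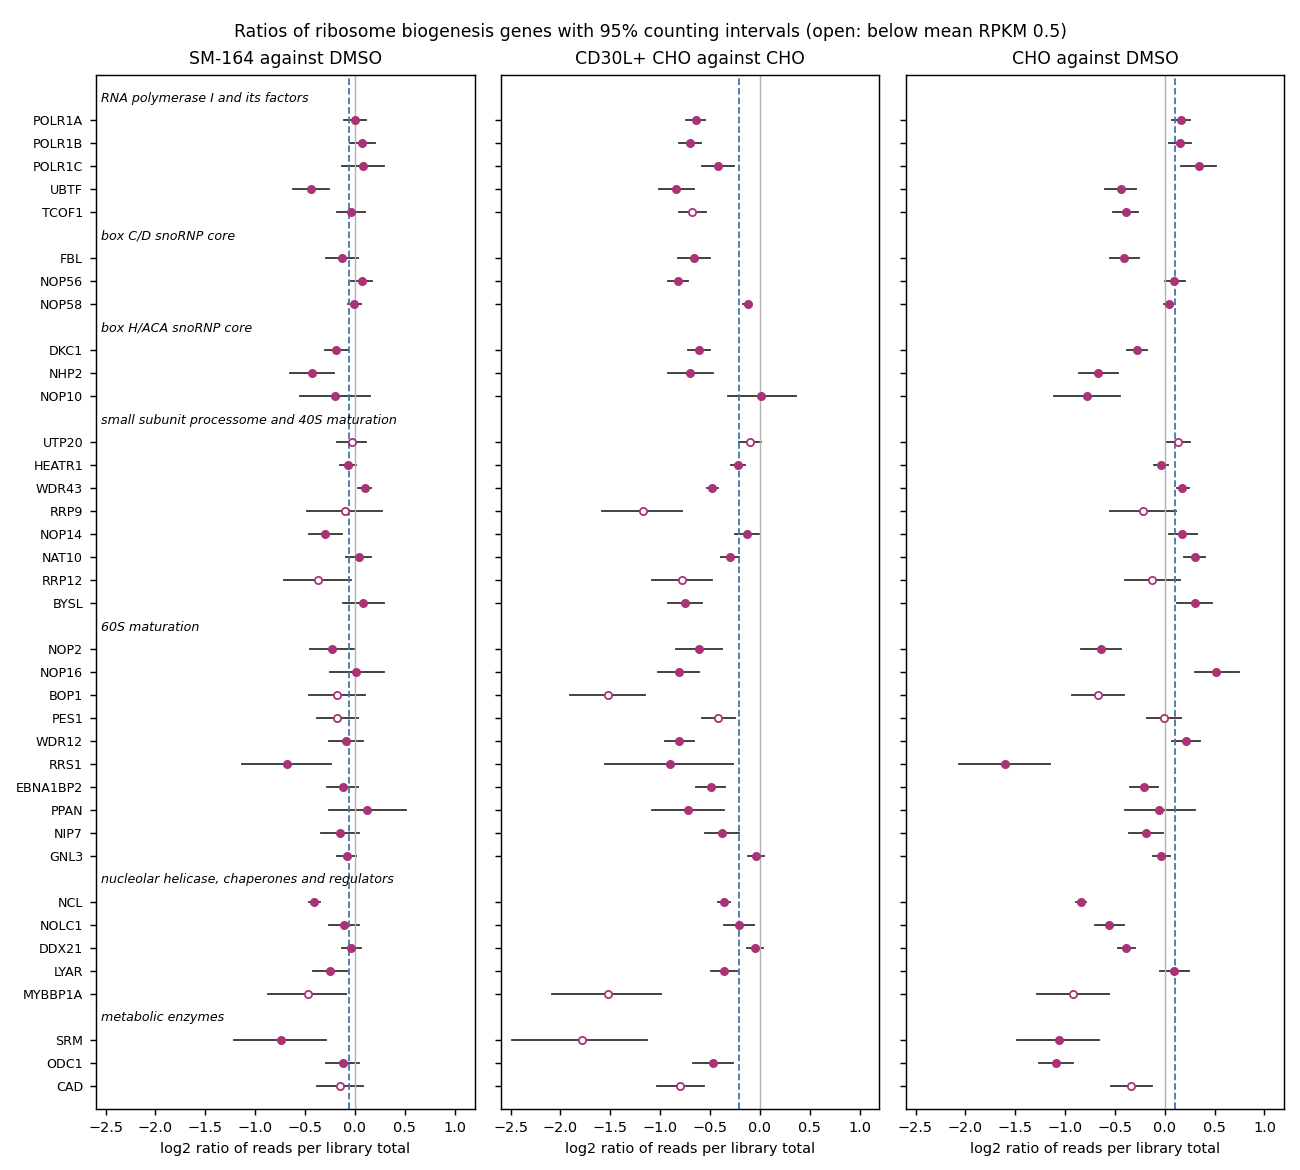
Log2 ratio of reads per library total for each gene in the 3 comparisons, with 95% counting intervals; open circles are genes below a mean RPKM of 0.5, and the dashed line is the median of all genes with at least 50 reads. In the middle panel 33 intervals lie below 0, while the SM-164 panel centres near 0 and the CHO panel has genes on both sides.

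In the RNA polymerase I group all 5 members had a CD30L interval below 1, against 55.6% of 12595 genes with at least 50 reads in the pair. POLR1A, the catalytic subunit, had an RPKM of 0.585 with DMSO, 0.585 with SM-164, 0.654 on CHO and 0.418 on CD30L+ CHO cells. POLR1B, the other large subunit, was at 0.973, 1.03, 1.08 and 0.664. Both were lowest with CD30L and near each other in the other libraries; the ratios to CHO were 0.640 (0.60 to 0.683) and 0.616 (0.570 to 0.665). POLR1C, a subunit shared with RNA polymerase III, was at 2.94, 3.11, 3.73 and 2.79, so that its CD30L value was close to that with DMSO, and its ratio to CHO was 0.748 (0.670 to 0.835). UBTF, the factor that opens ribosomal DNA for polymerase I, was at 1.29, 0.956, 0.953 and 0.533 and was lower in each of the other libraries than with DMSO. Its ratio was 0.560 (0.495 to 0.634) for CD30L and 0.739 (0.652 to 0.837) for SM-164. TCOF1, which encodes the polymerase I cofactor treacle, was at 0.758, 0.736, 0.577 and 0.361, with a CD30L ratio of 0.626 (0.569 to 0.688).

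The snoRNP proteins split. The box C/D snoRNP methylates ribosomal RNA, with FBL (fibrillarin) as the enzyme and NOP56 and NOP58 as paired scaffold proteins. FBL was at an RPKM of 1.99 with DMSO, 1.82 with SM-164, 1.5 on CHO and 0.952 on CD30L+ CHO cells, a CD30L ratio of 0.633 (0.566 to 0.707). NOP56 was at 8.73, 9.14, 9.36 and 5.30, level in 3 libraries and lower in the last, at 0.567 of CHO (0.529 to 0.607). NOP58 was at 4.12, 4.10, 4.26 and 3.91, at 0.919 of CHO (0.889 to 0.950), a direction that flipped under TMM scaling and DESeq2 size factors. The log2 ratios of the 2 scaffold genes were -0.79 and -0.11, and the median of all genes, -0.12, lay next to that of NOP58.

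In the box H/ACA snoRNP, which converts uridine to pseudouridine, DKC1 is the enzyme and NHP2 and NOP10 are small core proteins. DKC1 was at 3.10, 2.73, 2.56 and 1.67 in the order DMSO, SM-164, CHO and CD30L+ CHO, and NHP2 at 3.28, 2.43, 2.06 and 1.27. Both were lower with each treatment than with its own control, and lower on CHO cells than with DMSO. The CD30L ratios were 0.653 (0.605 to 0.705) for DKC1 and 0.617 (0.527 to 0.722) for NHP2. NOP10 was at 3.71 with DMSO, 3.21 with SM-164 and 2.19 on CD30L+ CHO cells, and lowest on CHO cells. Its 2 co-culture values, from 143 reads on CHO and 144 on CD30L+ CHO cells, did not differ beyond counting error, at a ratio of 1.01 (0.799 to 1.29). It is also the shortest member, with 1446 counted bases and 122 to 166 reads.

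Among the 8 genes of the small subunit processome and 40S maturation, UTP20 differed least with CD30L. UTP20, the longest member at 106493 counted bases, was at 0.274, 0.267, 0.30 and 0.281 and did not differ from CHO beyond counting error, at 0.934 (0.867 to 1.01). HEATR1, a large processome protein that also promotes polymerase I transcription, was at 1.59, 1.52, 1.55 and 1.33. NOP14 was at 0.906, 0.739, 1.03 and 0.942, lowest with SM-164. NAT10, which acetylates cytidines of ribosomal RNA, was at 0.926, 0.950, 1.14 and 0.923, so that its CD30L value was close to that with DMSO, and its ratio to CHO was 0.812 (0.762 to 0.866).

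The remaining processome genes were lowest with CD30L, as were 43.7% of the 7861 genes whose mean RPKM over the libraries reached 0.5. The means of RRP9 and RRP12 did not reach it. WDR43 was at 2.21, 2.36, 2.51 and 1.8, a ratio of 0.719 (0.691 to 0.747) to CHO. BYSL (bystin), needed for 40S maturation, was at 1.14, 1.21, 1.4 and 0.834, a ratio of 0.595 (0.528 to 0.669). Both were highest on CHO cells. RRP9, a U3 snoRNP protein, was at 0.517, 0.480, 0.444 and 0.197, the lowest ratio of this group at 0.443 (0.333 to 0.583) from 173 and 76.0 reads. RRP12, an export factor, was at 0.139, 0.108, 0.127 and 0.0742, with a ratio of 0.583 (0.474 to 0.715).

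Of the 10 genes of 60S maturation, 9 had a CD30L interval below 1, against 55.6% of 12595 genes with at least 50 reads in the pair. The PeBoW complex of PES1, BOP1 and WDR12 processes the 60S precursor RNA. BOP1 was at 0.283, 0.249, 0.178 and 0.0620 in the order DMSO, SM-164, CHO and CD30L+ CHO. WDR12 was at 0.661, 0.624, 0.768 and 0.439, and PES1 at 0.492, 0.436, 0.488 and 0.366. The CD30L ratios of the 3 partners were 0.349 (0.268 to 0.450) for BOP1, 0.572 (0.518 to 0.631) for WDR12 and 0.750 (0.667 to 0.843) for PES1. These intervals, which cover counting error only, do not overlap. BOP1 and PES1 lay below the expression minimum. On the log2 scale with the pseudocount the order of BOP1 and WDR12 was reversed, at -0.46 and -0.56, with PES1 at -0.26.

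RRS1, a short gene whose protein brings 5S RNA into the precursor, had the lowest ratio of CHO to DMSO of all members. Its values were 2.40, 1.51, 0.789 and 0.426, from 127, 67.4, 61.7 and 33.1 reads. RRS1 was lower with each treatment than with its own control, and was at 0.536 of CHO with CD30L (0.341 to 0.831). NOP16 was at 1.92, 1.94, 2.74 and 1.56, highest on CHO and at 0.569 with CD30L (0.493 to 0.656). NOP2, a methyltransferase of 28S RNA, was at 1.18, 1.00, 0.753 and 0.496, a ratio of 0.657 (0.559 to 0.770). PPAN was at 0.811, 0.889, 0.782 and 0.475; its reads may be split with the neighbouring readthrough transcript. EBNA1BP2 was at 2.84, 2.60, 2.46 and 1.75, a ratio of 0.711 (0.643 to 0.786), and NIP7 at 4.46, 4.03, 3.93 and 3.03, a ratio of 0.771 (0.685 to 0.868). GNL3 (nucleostemin), a nucleolar GTPase of stem and tumour cells, was nearly level at 7.45, 7.06, 7.28 and 7.08, with a CD30L ratio of 0.972 (0.922 to 1.03).

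Among the nucleolar regulators, NCL was at 22.9 with DMSO, 17.3 with SM-164, 12.8 on CHO and 9.98 on CD30L+ CHO cells. It was lower with each treatment than with its own control, at 0.755 (0.727 to 0.785) for SM-164 and 0.778 (0.748 to 0.810) for CD30L. NOLC1, a snoRNP chaperone, was at 2.12, 1.97, 1.44 and 1.24, and DDX21, an RNA helicase of the nucleolus, at 2.37, 2.31, 1.81 and 1.75. Both were lower in the co-culture experiment and little different within it, with CD30L ratios of 0.863 (0.777 to 0.959) and 0.967 (0.912 to 1.02). LYAR was at 0.962, 0.810, 1.03 and 0.802, lower with both treatments. MYBBP1A, which represses polymerase I and binds p53, was at 0.289, 0.208, 0.153 and 0.0533, and its CD30L ratio of 0.347 (0.236 to 0.502) came from 40 and 116 reads.

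The metabolic enzymes were all lowest with CD30L, as were 43.7% of the 7861 genes whose mean RPKM over the libraries reached 0.5. The means of SRM and CAD did not reach it. SRM, spermidine synthase, was at 0.728, 0.434, 0.348 and 0.101, from 123, 62.0, 87.0 and 25.0 reads, with the lowest CD30L ratio of all members, 0.290 (0.178 to 0.456). ODC1, ornithine decarboxylase and the first step of polyamine synthesis, was at 2.91, 2.68, 1.37 and 0.989. Its values were lower in the co-culture experiment, and its CD30L ratio was 0.724 (0.629 to 0.832). CAD was at 0.437, 0.394, 0.347 and 0.20, with a ratio of 0.576 (0.489 to 0.676).

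With SM-164 the same genes were close to DMSO. The median ratio of reads was 0.919, from 0.597 for SRM to 1.09 for PPAN, and the summed members were at 0.927 (0.914 to 0.941), or 0.961 (0.946 to 0.977) without NCL. The median log2 ratio of the 30 tested members was -0.09, against -0.04 for all 7881 genes. Values below 0 were found for 22 of the 30 (73.3%), against 63.3% of all genes, and under TMM scaling for 18 of the 30, against 51.6%. At 1.5-fold, 1 of the 30 was lower (RRS1, log2 ratio -0.59), against 1.10% of all genes, and none was higher, against 0.787%. RRS1 no longer reached 1.5-fold after centring all genes on 0 (-0.55), with TMM scaling (-0.55), with DESeq2 size factors (-0.56) or with the length trend subtracted (-0.33). At 2-fold, none was lower or higher, against 0.0634% and 0.190%. No read ratio was at or below 0.5, against 0.335% of 11938 genes.

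For 25 of the 37 genes the SM-164 interval held 1. It lay below 1 for 11 (29.7%), near the 25.0% of 11938 genes, and above 1 for WDR43 alone, at 1.07 (1.02 to 1.12), against 12.7% of these genes. The lowest were SRM at 0.597 (0.432 to 0.816), RRS1 at 0.624 (0.457 to 0.846) and MYBBP1A at 0.720 (0.548 to 0.942). UBTF, NHP2 at 0.743 (0.639 to 0.863) and NCL followed. NOP14 was at 0.815 (0.725 to 0.915) and LYAR at 0.841 (0.747 to 0.948). NOP56, POLR1A and BYSL, which were lower with CD30L, had SM-164 ratios of 1.05 (0.971 to 1.13), 1.000 (0.926 to 1.08) and 1.06 (0.921 to 1.22). Across the 37 members the log2 ratios of the 2 treatments had a Spearman correlation of -0.01, against 0.40 over 7210 genes tested in both. The 2 sets are unlike, since the 37 include members below the expression minimum and the 7210 hold only genes that passed it. These comparisons share no library, but the points within each share their libraries, and genes are not independent. The difference between the treatments was not tested, since each has 1 library.

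The control libraries of the 2 experiments also differed, without SM-164 or CD30L. CHO against DMSO sets cells exposed to hamster cells beside solvent-treated cells of another experiment, and it shares a library with each comparison above. For this pair, 18 of the 37 intervals (48.6%) lay below 1, against 29.7% of 12620 genes, and 11 (29.7%) above, against 44.2%. The median log2 ratio of the 30 tested members was -0.11, against 0.06 for all 8081 genes. Tested members below 0 numbered 18 of 30, against 43.8% of all genes. RRS1 was the 1 tested member at least 2-fold lower, against 4.52% of all genes, and 6 were at least 1.5-fold lower, against 10.7%: RRS1, ODC1, NCL, NOP10, SRM and NHP2. SRM passed the minimum through DMSO alone, here and for SM-164, so being lower was partly fixed by that rule. None was 1.5-fold higher, against 7.07%, or 2-fold higher, against 0.879%.

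Read ratios of CHO to DMSO were 0.330 (0.240 to 0.451) for RRS1, 0.469 (0.417 to 0.527) for ODC1 and 0.478 (0.359 to 0.635) for SRM, the 3 members at or below 0.5 (8.11%, against 6.33% of 12620 genes). NCL was at 0.560 (0.540 to 0.580). On the other side, NOP16 was at 1.43 (1.23 to 1.67), POLR1C at 1.27 (1.12 to 1.43), and NAT10 and BYSL both at 1.23. RRS1, ODC1 and NCL differed more between the controls than with CD30L, and SRM less. NOP56 (1.07, below 1 under TMM scaling), WDR12 (1.16), POLR1B (1.11) and BYSL were slightly higher on CHO than with DMSO and lower with CD30L than on CHO. MYC was at 1.01 of DMSO on CHO cells (0.937 to 1.09).

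Gene length moved with these ratios in all genes. The members were shorter than other genes: they had a median of 14675 counted bases, from 1446 to 106493, against 27212 for the genes tested on CHO and CD30L+ CHO cells. With CD30L, all genes had a median log2 ratio of -0.27 in the shortest length decile and -0.04 in the longest. A running median over genes of like length was subtracted from each member. The median of the tested members then moved from -0.43 to -0.26 for CD30L, from -0.09 to -0.01 for SM-164 and from -0.11 to -0.14 for CHO against DMSO. For CD30L, 24 of the 28 tested members remained below 0. The subtraction moved the median of all genes to 0, so about as many of them lay below 0 as above. At least 1.5-fold lower was 1 of the 28, against 1.96% of all genes. Over all 37, DDX21, GNL3, NOP10 and NOP14 were the 4 above 0. NOP56 (-0.59), SRM (-0.56), NOP16 (-0.49), UBTF (-0.46), BYSL (-0.46) and WDR12 (-0.46) lay farthest below genes of their length. Across the members themselves, the log2 ratio and the counted bases had a Spearman correlation of 0.31 for CD30L, 0.30 for SM-164 and 0.36 between the controls (37 genes).

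**Figure D3:**
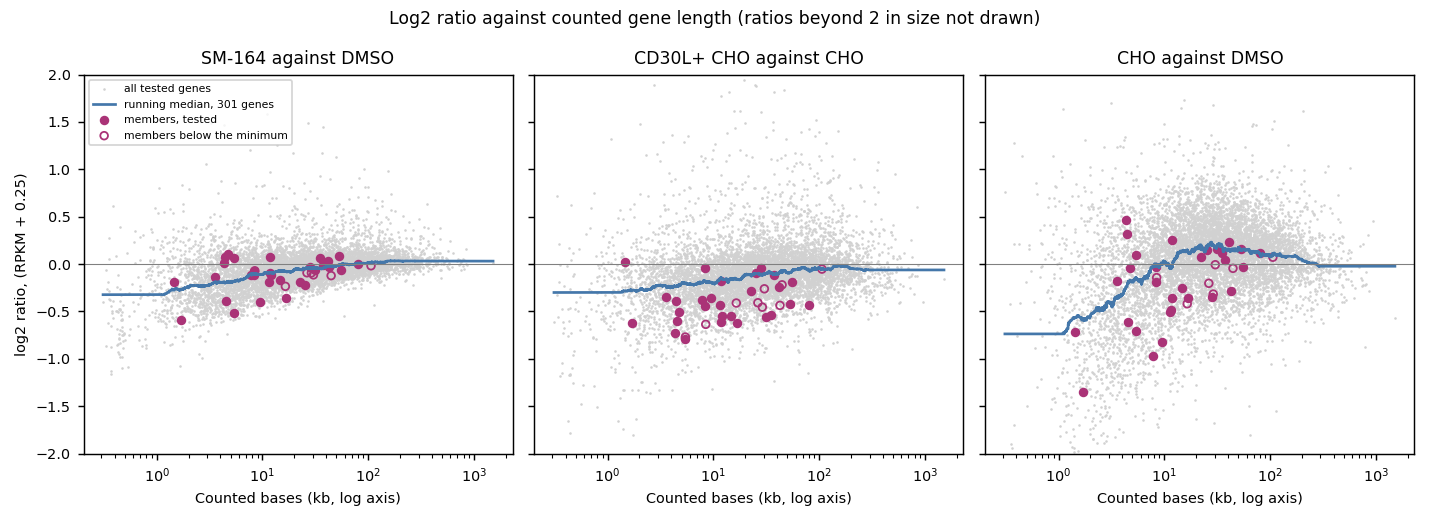
Log2 ratio of (RPKM + 0.25) against counted bases (kb, log axis) for all tested genes (grey), with the running median by length (line) and the members (filled when tested, open below the minimum). With CD30L 24 of the 28 tested members lie under the line, while about as many of all tested genes lie under it as above. With SM-164 the members scatter around it.

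The other genes of the pathway had a median nearer to that of all genes. Of 179 further genes of ribosome biogenesis in 6 lists, 147 were tested, with a median log2 ratio of -0.22, and -0.05 under TMM scaling. Of the 147, 135 were below 0, against 72.0% of all genes. At least 1.5-fold lower were 5, against 4.99% of all genes, and 0 were at least 1.5-fold higher, against 2.62%. By list the medians were -0.24 for 60S maturation (44 tested), -0.23 for the small subunit processome (41), -0.23 for RNA polymerase III (18), -0.19 for snoRNP assembly (11), -0.19 for the exosome and RNA processing (19) and -0.13 for further polymerase I subunits and factors (14). CD3EAP, a polymerase I subunit, was at 0.50 of CHO, and POP7, a protein of RNase P and RNase MRP, at 0.467; POP7 passed the minimum through its CHO value alone. On the other side stood NOC3L, a 60S factor, at 1.35, and DDX47, a processome helicase, at 1.23. Whether the members and these lists differ was not tested, and the members were picked with earlier results of these data known.

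Of the role groups, the median log2 ratio of tested members with CD30L was -0.55 for box H/ACA (3 genes), -0.54 for box C/D (3), -0.49 for polymerase I (4), -0.47 for 60S maturation (8), -0.24 for the small subunit (5) and -0.23 for the nucleolar regulators (4). Polyamine and nucleotide synthesis genes outside the list had a median of -0.23 over 23, with 7 at least 1.5-fold lower, against 4.99% of all genes. OAZ1, the antizyme that sends ODC1 to the proteasome, was at 0.510 of CHO, and IMPDH1, of guanine nucleotide synthesis, at 0.440, again passing through its CHO value alone. OAZ1 differed more between the controls, at 0.223 of DMSO on CHO cells. In the MYC network, MXD1 was at 3.24 on CHO and 5.02 on CD30L+ CHO cells, a ratio of 1.55, and MXD3 was at a ratio of 0.571. Between the controls, the CHO to DMSO ratio was 2.94 for MXD1, larger than with CD30L, and 0.685 for MXD3.

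**Figure D4:**
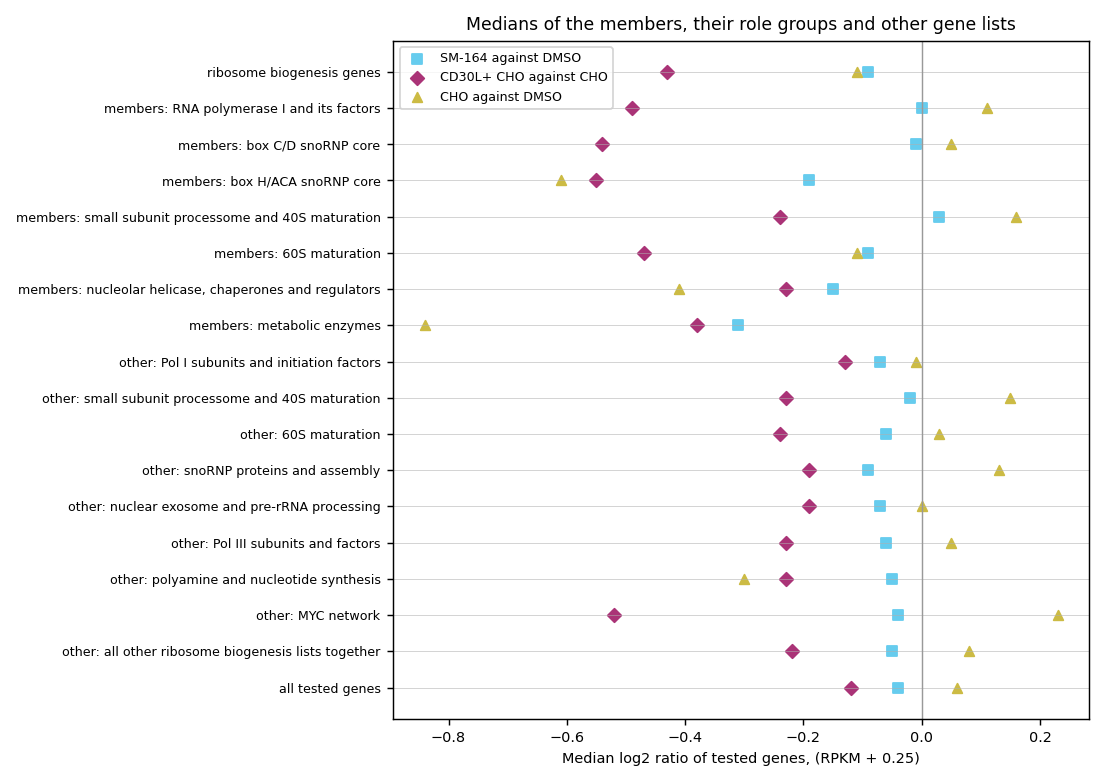
Median log2 ratio of (RPKM + 0.25) of tested genes for the members, their role groups, other lists and all genes in the 3 comparisons. The CD30L diamond of the members (-0.43) lies left of that of the other ribosome biogenesis lists pooled (-0.22) and of all genes (-0.12). The small subunit (-0.24) and regulator (-0.23) groups lie among the separate ribosome biogenesis lists (-0.24 to -0.13). The MYC network (-0.52, 6 tested genes with MYC among them) lies left of the members.

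Members with and without the E-box overlapped in their responses. With CD30L the median log2 ratio was -0.38 for the 17 members with CACGTG in a promoter window, from -0.77 to 0.02, and -0.52 for the 14 without, from -0.79 to -0.19. CACGTG outside the windows was not looked for. The expression minimum was passed by 12 of the 17 and 13 of the 14, and this scale understates differences of low genes. As read ratios without the pseudocount, the lowest were SRM at 0.290 with the box and UBTF at 0.560 without. SRM and RRP9, with the box shown above, were among the lowest, and so were NOP56, UBTF and WDR12, whose windows did not hold these letters. GNL3, DDX21 and NOP10 held it and hardly differed. For SM-164 the medians were -0.11 with and -0.06 without the box.

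The spans of 8 members hold genes of small nucleolar RNAs, the guides of the snoRNPs themselves: 20 snoRNA features lay inside members on the same strand. They are listed apart, and each host had bases left out of its counted bases. In NCL these were 292, equal to the bases of its snoRNAs. In NOP56 they were 502, more than its snoRNAs and the microRNA MIR1292 within it cover. In PPAN they were 317, also more than its snoRNAs cover. NOP56 held SNORD110, SNORA51, SNORD56 and SNORD57, with 65.5 reads in sum with DMSO, 79.7 with SM-164, 148 on CHO and 101 on CD30L+ CHO cells. NCL held SNORA75, SNORD20 and SNORD82 (47.7, 38.3, 80.4 and 50.5 reads), and GNL3 held 3 (17.3, 24.9, 58.3 and 53.9 reads). All 20 together had 179, 186, 374 and 276 reads, not scaled to the library totals. These features are short and copies elsewhere can share their reads, so the sums are uncertain.

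In the genome the members were spread over 17 chromosomes. Chromosome 2 held 8 of the 37 (ODC1, CAD, WDR43, POLR1A, POLR1B, NOP58, WDR12 and NCL), while it held 7.19% of the genes tested on CHO and CD30L+ CHO cells. In hg19, NCL lies on chromosome 2 from 232319459 to 232329205, NOP56 on chromosome 20 from 2633178 to 2639039, SRM on chromosome 1 from 11114649 to 11120091, UBTF on chromosome 17 from 42282401 to 42298994 and GNL3 on chromosome 3 from 52719936 to 52728510.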

How the data were processed

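The genome build was hg19, and the tools TopHat 1.4.1, bedtools 2.16.2, Bowtie 0.12.8 and CASAVA 1.8.2 are listed in, and credited per, the submitters' processing notes. The gene annotation was not given in the sources used here. The authors deposited, per feature and library, an estimated count of reads over exons and introns, a signal that equals this count divided by the counted bases, and the RPKM, scaled by 1 total per library. Between 60.6% and 70.8% of non-zero estimated counts lay within 0.001 of a whole number. Totals were recovered from the deposited signal and RPKM. Sense entries were used, and a repeated symbol kept the entry with most counted bases.

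Ratios used the deposited RPKM with a pseudocount of 0.25, over genes whose mean RPKM in the 2 libraries reached 0.5 and that had 300 or more counted bases. Read ratios used counts rounded to whole reads, with exact conditional (Clopper-Pearson) 95% intervals that cover counting error only, since PCR reads are not independent molecules. With 1 library per condition there was no test. All 37 members were reported, MYC beside them, and of each other list at most the 2 highest and 2 lowest genes. The members and lists were chosen with earlier results of these data known. Alternatives were other pseudocounts, minimums and thresholds, a median set to 0, TMM scaling (edgeR 4.0.16), DESeq2 1.42.0 size factors and subtraction of a running median by counted bases. The procedure was tested on simulated data with planted changes of more than 2-fold and counting error only. This does not bear on the smaller shifts reported here. The software was R 4.3.3 and Python 3.11.15 with scipy 1.17.1, pandas 2.3.3 and numpy 2.4.6.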

Additional observations from a re-analysis of the deposited data

Results flagged for a closer look

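Reads antisense to members were not part of the comparisons. For TCOF1 they numbered 221 with SM-164 and 209 with DMSO, a ratio of 1.25 per library total (1.03 to 1.52). They numbered 640 on CD30L+ CHO against 558 on CHO cells, a ratio of 1.16 (1.03 to 1.30). Both were taken up because the counting interval lay above the control level, while sense reads of TCOF1 were lower with CD30L. The CHO against DMSO ratio of the same antisense reads was 1.81 (1.54 to 2.13), larger than either. Other members had antisense intervals below 1. With CD30L, NHP2 was at 0.521 (0.377 to 0.713), HEATR1 at 0.621 (0.501 to 0.768) and NCL at 0.488 (0.245 to 0.931). With SM-164, GNL3 was at 0.345 (0.126 to 0.826). No share over all antisense features is set beside these ratios.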

How the results depend on the processing

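No paired analysis was possible because each condition has 1 library. The members' median stayed below 0 in the 3 comparisons under every alternative run, while single genes near 0 changed sign with the scaling. With CD30L the median of -0.43 was -0.25 under TMM scaling, -0.23 with DESeq2 size factors, -0.26 with the length trend subtracted and -0.61 as a read ratio without a pseudocount, a setting that also replaced the RPKM minimum (37 genes in place of 28) and moved the median of all genes from -0.12 to -0.21. The count at least 2-fold lower with CD30L, 0 (against 0.731% of all genes), became 6 at 1.5-fold (against 4.99%). As read ratios without a pseudocount it was 4, against 5.76%. With SM-164, 0 (against 0.0634%) became 1 at 1.5-fold (against 1.10%). Between the controls, the 1 gene (against 4.52%) became 2 with a pseudocount of 0.1, after centring all genes on 0, with TMM scaling and with DESeq2 size factors. The count was 0 with a pseudocount of 1 and with the length trend subtracted. It was 3 as read ratios, against 6.33% of all genes, and 6 at 1.5-fold, against 10.7%. Members with fewest reads, such as SRM, RRS1 and MYBBP1A, have the widest counting intervals, and no library can be left out.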

Other observations

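Antisense reads of the 37 members summed to 812 with DMSO, 696 with SM-164, 2080 on CHO and 1916 on CD30L+ CHO cells, and few genes carried them. HEATR1 had 19.6 antisense reads with DMSO and 232 on CHO cells, a ratio of 7.84 per library total (4.96 to 13.1), and 143 on CD30L+ CHO cells. UTP20 had 190 and 595, a ratio of 2.12 (1.8 to 2.51), while its sense ratio between the same libraries was 1.10. SRM, EBNA1BP2, NOP10 and PPAN had 0 antisense reads in all 4 libraries.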
